A study of Mus musculus with 12 samples.

Results

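The antiviral interferon-stimulated genes described here were 40 genes, chosen by symbol from the 23479 gene symbols of the count tables as genes that interferon switches on and whose products act against viruses. The guanylate-binding proteins, the immunity-related GTPases, the interferon regulatory factors, the Stat genes and the genes of antigen processing were left out of the set. All 40 symbols were found, and 38 passed the filter on low counts, so that counts of members are given out of 38, while Mx1 and Ifi204 are given as reads only. The study sequenced RNA of CD4+ T cells isolated from mouse spleen, all on a C57BL/6 background. The cells came from wild-type C57BL/6J mice (WT) or from Sirt2-/- mice (KO), which carry a null genotype for SIRT2, an NAD-dependent protein deacetylase. Either RNA was taken straight after isolation without stimulation (0 h), or the cells were first cultured for 24 h in RPMI medium with serum on plates coated with anti-CD3 antibody (5 µg/ml; 24 h), which engages the T cell receptor complex. No cells cultured for 24 h without the antibody were analysed here, so the effects of culture and of the antibody cannot be told apart, and no interferon or virus was added in any group. The 12 libraries formed 4 groups of 3, named by genotype and time. Separate mice are not stated for the 3 replicates of a group, so the p-values rest on differences between libraries that may be technical.

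Type I interferons bind a receptor made of IFNAR1 and IFNAR2, whose kinases JAK1 and TYK2 switch on transcription factors of the STAT family. With IRF9 these form a complex that binds the interferon-stimulated response element (ISRE) in the promoters of target genes, while interferon gamma acts through the gamma-activated site (GAS). The targets include sensors of foreign nucleic acids, enzymes that degrade or mark viral RNA, the ubiquitin-like protein ISG15 with its ligases and protease, and membrane proteins that hold back virus particles. T cells express many of these genes at a basal level.

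Depth was 3.63 to 10.0 megareads in genes per library. Levels are given as CPM, read counts scaled to library size and TMM factors. Sirt2 stood between 67.8 and 85.3 CPM in WT 0 h against 9.03 to 16.2 in KO 0 h, and between 62.2 and 76.2 in WT 24 h against 9.51 to 19.6 in KO 24 h, so every library fitted its label on this gene, with some reads left in each KO library. The summed level of 6 T cell markers, Cd4 and the Cd3 chains among them, was 5205 to 6268 CPM at 0 h and 2342 to 2741 CPM at 24 h. Summed markers of other spleen cells at 0 h were 16.1 to 29.2 CPM for B cells, 12.8 to 14.8 CPM for macrophages and monocytes and 2.13 to 4.03 CPM for dendritic cells. Those of plasmacytoid dendritic cells, most of them reads of Ccr9 and Tcf4, were at most 32.9 CPM, while Klk1 of that list, Clec9a of dendritic cells and the haemoglobin genes had no read in any library. The summed level of 4 NK cell markers was 56.3 to 62.3 CPM in WT 0 h and 80.2 to 89.7 CPM in KO 0 h, and that of Cd8a and Cd8b1 was 17.3 to 18.5 against 30.7 to 35.7 CPM. Of these, Cd8b1 passed (log2 fold change 0.85, edgeR adjusted p = 0.0176) and none of the 3 tested NK cell markers did. Cd8b1 made up most of the CD8 sum. Cd8a, with 15 reads in WT 0 h and 22 in KO 0 h, was not tested, and its libraries overlapped between the genotypes. The sums of plasmacytoid dendritic cells (at most 26.7 CPM in WT 0 h against at least 26.9 CPM in KO 0 h) and of macrophages and monocytes (12.8 to 14.3 against 14.7 to 14.8 CPM) were also higher in every KO 0 h library, with none of their tested markers passing, and the B cell marker Cd22 was lower in KO 0 h (-2.49, edgeR adjusted p = 0.0118). In the lists of plasmacytoid dendritic cells and macrophages, the means of Ccr9, Tcf4, Itgam and Cd68 were higher in KO 0 h, with overlapping libraries. Those of Siglech (0.330 CPM in WT 0 h against 0.313 in KO 0 h), Lyz2 (0.699 against 0.528) and Csf1r (0.792 against 0.787) were not. In bulk RNA of this kind, fewer cells of a type and less RNA per cell cannot be told apart.

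Promoters of members are shown because the letters of the ISRE core, through which the pathway acts, stand in many of them. RefSeq windows from 250 bases before to 50 bases after a gene's start were at hand for 29 of the 40 members. No window was at hand for Zbp1, Oas2, Usp18, Rtp4, Parp9 and Parp14, which rose over 24 h in both genotypes. A window was also missing for Ifi27l2a, the member that passed between the genotypes at 24 h, and for Dhx58, Mx1, Mx2 and Ifi204. The ISRE core was searched on both strands as the letters GAAA, any 2 bases and GAAA again, and was found in 13 of these 29 members, or 44.8%, against 3.99% of 27025 genes. The GAS core, searched as TTCNNNGAA, which is its own reverse complement, was found in 6 of the 29, or 20.7%, against 9.55% of the same 27025 genes. The letters of the ISRE core were not searched for overlap with other motifs, and a match is a description of these letters and not a binding site. The members with the highest levels among those with an ISRE core were Ifi203, Ddx58, Trim30a and Ifih1. Their windows follow 5′ to 3′ on the strand of the gene, in RefSeq of build GRCm38.p6, with the ISRE core on either strand in capitals. They lie at chr1:173942443-173942742 on the minus strand (Ifi203), chr4:40239776-40240075 on the minus strand (Ddx58), chr7:104465144-104465443 on the minus strand (Trim30a) and chr2:62646206-62646505 on the minus strand (Ifih1).
Ifi203: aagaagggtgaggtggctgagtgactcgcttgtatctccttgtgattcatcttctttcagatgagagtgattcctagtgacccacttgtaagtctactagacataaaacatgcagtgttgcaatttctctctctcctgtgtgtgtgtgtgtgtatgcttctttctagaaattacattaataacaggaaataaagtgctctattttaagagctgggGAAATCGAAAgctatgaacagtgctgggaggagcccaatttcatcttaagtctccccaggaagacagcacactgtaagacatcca
Ddx58: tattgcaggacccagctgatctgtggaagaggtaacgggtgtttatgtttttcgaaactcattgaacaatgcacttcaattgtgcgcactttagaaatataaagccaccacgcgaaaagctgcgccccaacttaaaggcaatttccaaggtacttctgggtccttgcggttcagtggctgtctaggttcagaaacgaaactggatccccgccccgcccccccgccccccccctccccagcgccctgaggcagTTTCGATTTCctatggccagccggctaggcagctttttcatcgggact
Trim30a: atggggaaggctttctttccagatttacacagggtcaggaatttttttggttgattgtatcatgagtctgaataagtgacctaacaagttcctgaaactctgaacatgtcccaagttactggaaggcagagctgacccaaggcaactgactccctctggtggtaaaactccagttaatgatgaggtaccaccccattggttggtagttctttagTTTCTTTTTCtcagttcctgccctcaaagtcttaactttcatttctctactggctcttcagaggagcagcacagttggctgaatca
Ifih1: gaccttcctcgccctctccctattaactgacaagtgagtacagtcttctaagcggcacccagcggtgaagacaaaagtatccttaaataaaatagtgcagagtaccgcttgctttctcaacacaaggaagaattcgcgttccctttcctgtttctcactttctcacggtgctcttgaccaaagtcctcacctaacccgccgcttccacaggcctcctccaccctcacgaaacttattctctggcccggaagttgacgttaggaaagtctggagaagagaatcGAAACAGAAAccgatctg
The core began 35 bases before the start in Ifi203 and 36 bases before it in Trim30a, and 2 and 32 bases after it in Ddx58 and Ifih1. The windows of Isg15 at chr4:156200769-156201068 on the minus strand and of Ifit3 at chr19:34583279-34583578 on the plus strand were added after the matches were counted, Isg15 for the highest number of cores and Ifit3 as 1 of the 5 members with 2 cores. The others with 2 were Ifit1 and Ddx60, which rose over 24 h in both genotypes, and Oas1a and Bst2, which passed in neither.
Isg15: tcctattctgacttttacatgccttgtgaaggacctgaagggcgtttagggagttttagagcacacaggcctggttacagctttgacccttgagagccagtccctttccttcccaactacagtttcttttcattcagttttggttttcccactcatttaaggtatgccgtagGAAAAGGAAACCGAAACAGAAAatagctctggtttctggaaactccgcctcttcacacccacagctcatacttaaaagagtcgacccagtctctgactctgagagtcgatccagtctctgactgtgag
Ifit3: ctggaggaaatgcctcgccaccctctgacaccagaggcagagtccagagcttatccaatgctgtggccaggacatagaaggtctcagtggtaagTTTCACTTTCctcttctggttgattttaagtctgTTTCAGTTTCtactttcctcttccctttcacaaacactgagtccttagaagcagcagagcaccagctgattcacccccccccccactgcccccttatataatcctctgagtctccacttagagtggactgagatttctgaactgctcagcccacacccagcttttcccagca
Isg15 had 3 overlapping cores that began between 78 and 66 bases before the start, and Ifit3 had 2 cores that began 156 and 122 bases before it. These 6 genes did not move alike over 24 h: Ifit3, Ifih1 and Trim30a rose in both genotypes, Ifi203 fell in both, Isg15 passed the test in KO alone, and Ddx58 passed in neither. Among the members with a window, the core was present in 5 of 11 that rose in WT, in 3 of 8 that fell and in 5 of 10 that did not pass. In KO it was present in 6 of 15 that rose, in 2 of 8 that fell and in 5 of 6 that did not pass.

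Most members were readily measured in unstimulated cells. Per kilobase of exon, as the mean of the 3 libraries of WT 0 h, Ifi27l2a had the highest level at 325 CPM per kb. Ifi27l2a encodes a small interferon-induced membrane protein. Next in order were Sp100, a component of PML nuclear bodies, at 88.9 CPM per kb, Lgals3bp, a secreted glycoprotein, at 74.1, Bst2 at 42.9 and Phf11b at 38.5. The lowest in WT 0 h were Ifi44 at 0.502 CPM per kb, Mx1 at 0.353, Mx2 at 0.303 and Ifi204 at 0.174. In WT 24 h the order per kilobase was Ifi27l2a at 198 CPM per kb, Dtx3l, an E3 ubiquitin ligase that pairs with PARP9, at 109.7, Zbp1, a sensor of Z-form nucleic acids, at 96.4 and Sp100 at 70.2, where Dtx3l and Zbp1 had stood at 34.5 and 29.9 in WT 0 h. The Mx genes encode dynamin-like GTPases that block virus replication, and the Mx1 allele of C57BL/6 and many other laboratory strains is defective. Mx1 had 28 reads over the 3 libraries of WT 0 h, 38 over those of KO 0 h, 17 over those of WT 24 h and 1 over those of KO 24 h, and Ifi204, a nuclear sensor of DNA, had 11, 12, 11 and 2.

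**Figure D1:**
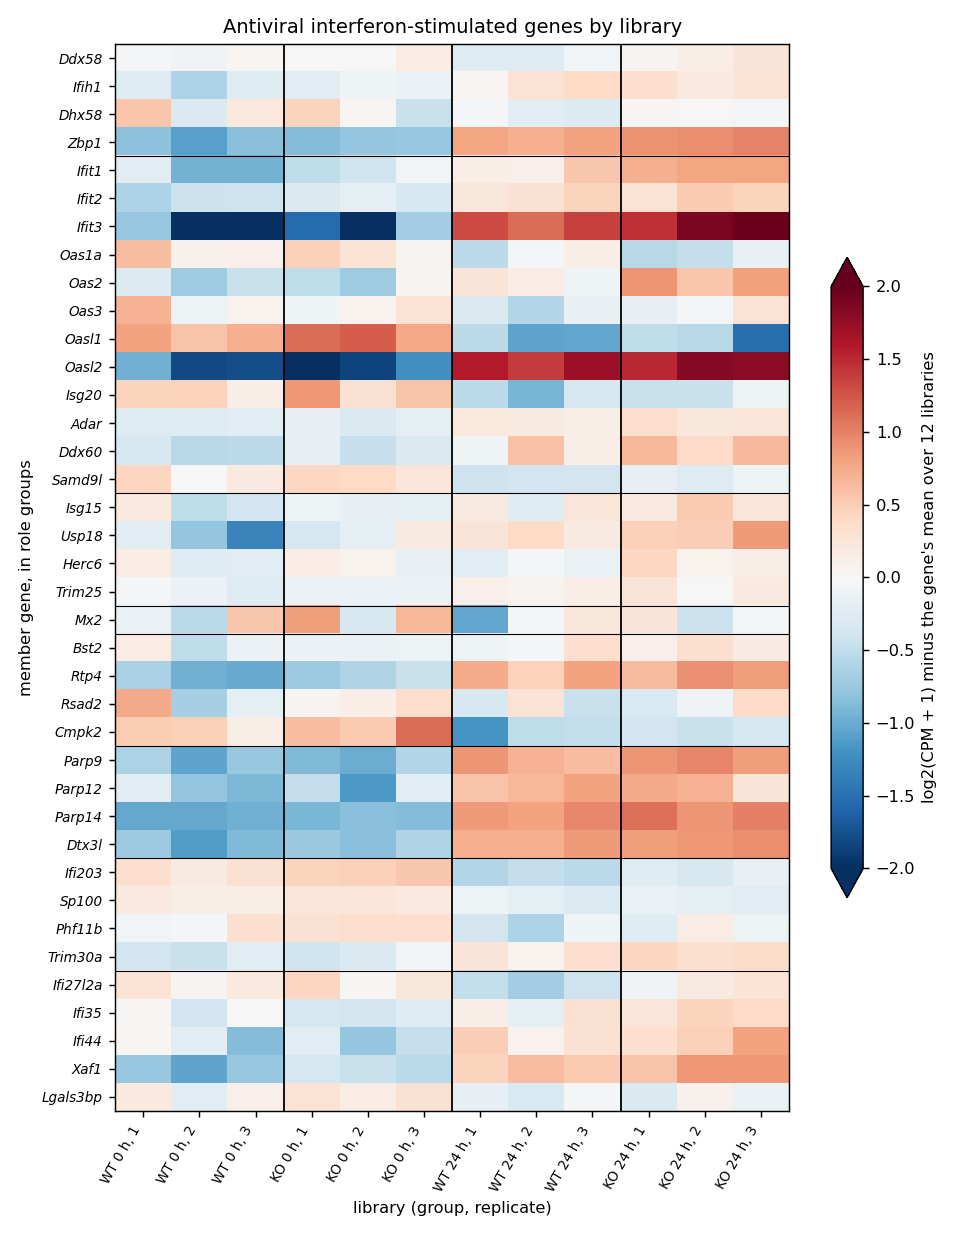
The 38 tested members in rows, by role, and the 12 libraries in columns; colour gives log2(CPM + 1) minus the gene's mean over the 12 libraries, and colours are capped at 2 in either direction. Oasl2 and Ifit3 are lowest in the 0 h libraries and highest in the 24 h libraries, Oasl1 runs the other way, and Parp9, Parp12, Parp14 and Dtx3l shift together.

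Over 24 h on anti-CD3 the members split. In WT, 17 of 38 rose and 9 fell (edgeR's quasi-likelihood test, Benjamini-Hochberg adjusted p below 0.05), where 20.2% of the 10981 genes tested rose and 20.5% fell. In KO, 21 of 38 rose, against 19.4% of all genes, and 8 fell, against 21.0%. The median log2 fold change of the members was 0.26 in WT and 0.45 in KO, beside a median of 0.00 over all genes in both. The WT median was 0.42 without WT 0 h replicate 1 and 0.47 with library totals alone, which moved the median of all genes to 0.21. Of the members, 17 rose in both genotypes and 7 fell in both, 7 passed in neither, 5 passed in KO alone and 2 in WT alone. These calls are from separate tests in each genotype, which do not test the difference between the genotypes.

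The oligoadenylate synthetase family, whose active enzymes make a second messenger of linked adenosines, held the extremes in both directions. Oasl2, an active synthetase in the mouse, stood at 46.0, 25.2 and 25.8 CPM in the 3 libraries of WT 0 h, at 18.6, 24.3 and 37.8 CPM in KO 0 h, at 271, 239 and 296 CPM in WT 24 h and at 259, 321 and 319 CPM in KO 24 h. All 24 h libraries lay above all 0 h libraries. The rise was 8.44-fold in WT (log2 fold change 3.08, SE 0.282, edgeR adjusted p = 1.95e-05) and 11.4-fold in KO (3.52, SE 0.291, adjusted p = 9.89e-06). Its neighbour Oasl1, which in the mouse holds back translation of Irf7 RNA, went down. Oasl1 stood at 15.1, 12.6 and 14.1 CPM in WT 0 h, at 18.9, 20.3 and 14.7 CPM in KO 0 h, at 5.42, 3.44 and 3.48 CPM in WT 24 h and at 5.49, 5.24 and 2.24 CPM in KO 24 h. Every 24 h library lay below every 0 h library. Oasl1 fell by 1.79 on the log2 scale in WT (SE 0.277, edgeR adjusted p = 6.68e-07) and by 2.01 in KO (SE 0.280, adjusted p = 7.47e-08). Oas2 rose in both genotypes, with a log2 fold change of 0.61 in WT (edgeR adjusted p = 0.0107) and 1.18 in KO (adjusted p = 2.63e-06). Without WT 0 h replicate 2 or WT 24 h replicate 1 the WT change of Oas2 no longer passed (0.51, adjusted p = 0.0587, and 0.54, adjusted p = 0.0501). Oas3 fell by 0.61 on the log2 scale in WT (edgeR adjusted p = 0.00895), a call that was lost without WT 0 h replicate 1 (-0.33, adjusted p = 0.0747), and its change in KO was -0.06. Oas1a changed by -0.46 and -0.84 and passed in neither.

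The other effectors that act on RNA were split as well. Ifit3, of a family that binds viral RNA and blocks its translation, stood at 17.1, 6.09 and 6.63 CPM in WT 0 h, at 9.54, 6.61 and 17.9 CPM in KO 0 h, at 74.1, 64.9 and 77.6 CPM in WT 24 h and at 83.4, 111 and 118 CPM in KO 24 h. The 0 h and 24 h libraries were far apart in both genotypes. Ifit3 rose 7.52-fold in WT (log2 fold change 2.91, SE 0.403, edgeR adjusted p = 0.000341) and 9.44-fold in KO (3.24, SE 0.397, adjusted p = 0.000157). Its relatives Ifit1 and Ifit2 rose less, with log2 fold changes of 0.97 and 0.83 in WT and 1.10 and 0.70 in KO. Adar, which edits adenosine to inosine in double-stranded RNA and had the highest CPM of this role group, rose by 0.41 and 0.49 on the log2 scale, and the helicase Ddx60 by 0.74 and 0.89. The exonuclease Isg20 fell by 0.99 in WT and by 0.98 in KO, and Samd9l, an inhibitor of viral and cellular translation, fell by 0.61 and 0.54.

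The sensors did not move as a group. Zbp1 stood at 93.1 to 113 CPM in WT 0 h, at 109 to 117 CPM in KO 0 h, at 328 to 348 CPM in WT 24 h and at 374 to 399 CPM in KO 24 h. It rose by 1.69 on the log2 scale in WT (edgeR adjusted p = 6.85e-21) and by 1.76 in KO (adjusted p = 1.72e-21). Ifih1, which encodes the RNA sensor MDA5, rose by 0.62 and 0.42. Ddx58, which encodes the RNA sensor RIG-I, ran from 108 to 155 CPM over the 12 libraries and passed in neither genotype, with changes of -0.17 in WT and 0.11 in KO. Dhx58, which encodes their relative LGP2, changed by -0.40 and -0.08 and did not pass.

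The ADP-ribosyltransferases and their partner were the role group in which all members rose in both genotypes. Parp14, a transferase that attaches single ADP-ribose units, stood at 121, 122 and 128 CPM in WT 0 h, at 132, 139 and 136 CPM in KO 0 h, at 452, 436 and 485 CPM in WT 24 h and at 533, 459.6 and 499 CPM in KO 24 h. The times did not overlap and the replicates lay close together. Its rise was 3.70-fold in WT (log2 fold change 1.89, SE 0.0853, edgeR adjusted p = 4.31e-23) and 3.67-fold in KO (adjusted p = 5.18e-23). Dtx3l rose by 1.67 and 1.61 on the log2 scale, its partner Parp9 by 1.55 and 1.73, and Parp12 by 1.40 and 1.25. Parp9 and Dtx3l share 458 exonic bases on opposite strands in the mouse annotation, and the strand setting of the counting is not known, so reads of this stretch cannot be assigned to either.

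In the ISG15 system, Usp18, the protease that removes ISG15 and also damps signalling at the type I receptor, rose by 1.07 in WT and 0.76 in KO on the log2 scale. Isg15 itself stood at 14.3 to 23.7 CPM in WT 0 h, at 17.9 to 19.3 CPM in KO 0 h, at 17.3 to 24.7 CPM in WT 24 h and at 23.8 to 30.2 CPM in KO 24 h. The WT groups overlapped and Isg15 did not pass there (0.29, edgeR adjusted p = 0.222), while it rose in KO (0.50, adjusted p = 0.0312). Trim25, a ubiquitin ligase that activates RIG-I, was close to the threshold in WT (0.23, edgeR adjusted p = 0.0502) and rose in KO (0.28, adjusted p = 0.0168). Herc6, the main ISG15 ligase of the mouse, passed in neither (-0.02 and 0.18). Among the membrane and nucleotide effectors, Rtp4, a chaperone of receptors, rose by 1.56 in WT and 1.41 in KO. Cmpk2, a mitochondrial nucleotide kinase, fell by 1.18 and 1.29. Its genomic neighbour Rsad2, whose product viperin makes a chain-terminating nucleotide, changed by -0.19 and -0.18 and did not pass, and Bst2, which encodes tetherin, changed by 0.23 and 0.32 and did not pass. Mx2, at 0 to 2.68 CPM over all libraries, changed by -0.35 and -0.92 and did not pass.

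Of the nuclear regulators, Ifi203, of the family of DNA-binding p200 proteins, fell by 0.81 in WT and by 0.72 in KO, Sp100 by 0.34 and 0.39, and Phf11b by 0.45 and 0.39. Trim30a, a ubiquitin ligase known as a brake on NF-kappaB signalling in the mouse, rose by 0.58 and 0.62. Among the remaining members, Xaf1, a promoter of apoptosis, rose by 1.42 and 1.23. Ifi35 and Ifi44 passed in KO alone, with 0.72 (edgeR adjusted p = 0.000373) and 1.23 (adjusted p = 0.0129), beside 0.20 and 0.75 in WT. Lgals3bp fell in KO (by 0.35, edgeR adjusted p = 0.0036) and changed by -0.20 in WT. Scaled by library totals alone, which moved the median of all genes to 0.21 in WT and 0.24 in KO, Sp100 and Phf11b no longer passed in either genotype, nor did Lgals3bp in KO. The calls of Phf11b, and in KO those of Isg15, Trim25, Ifi44 and Lgals3bp, were also lost when single libraries of the comparison were left out. The summed T cell markers given above were lower at 24 h, as were those of B cells (16.1 to 29.2 CPM at 0 h, 2.93 to 7.21 CPM at 24 h) and of NK cells (56.3 to 89.7 CPM against 13.6 to 28.3 CPM), and their part in the changes over time was not tested.

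**Figure D2:**
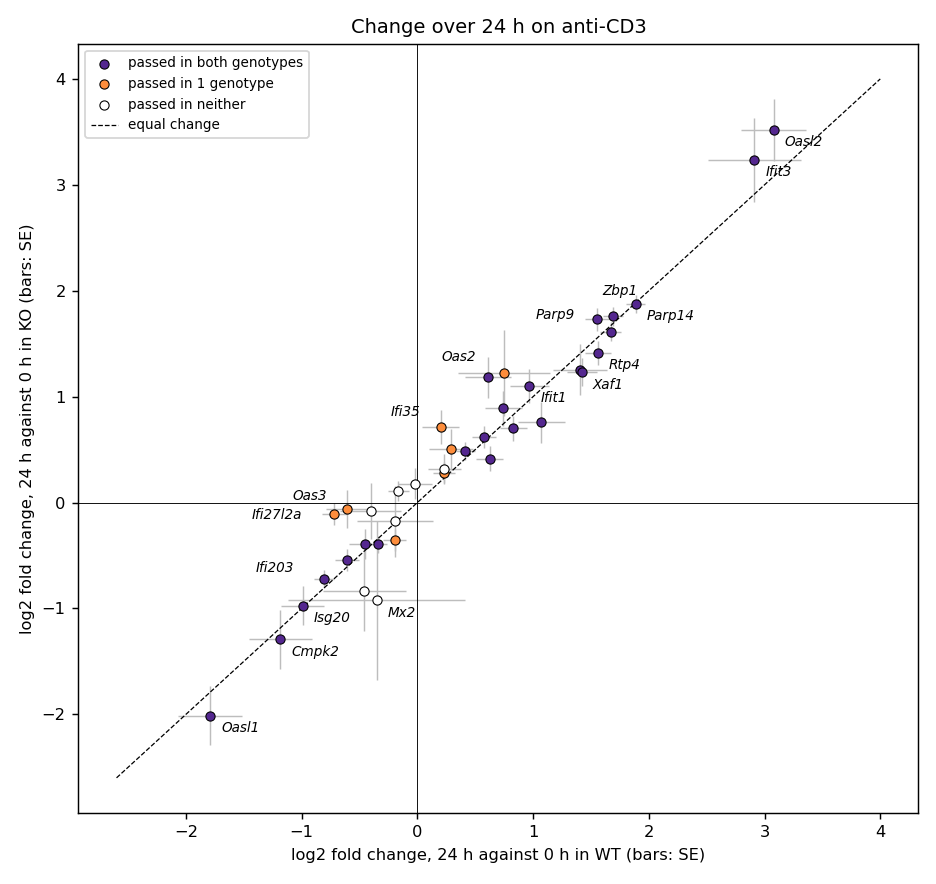
Log2 fold change of each tested member from 0 h to 24 h in WT (horizontal) and in KO (vertical), with bars of 1 SE; the dashed line marks equal change. Oasl2 (3.08 and 3.52) and Ifit3 (2.91 and 3.24) lie at the upper right, Oasl1 (-1.79 and -2.01) at the lower left, and Ifi27l2a (-0.72 and -0.11) lies to the left of the line.

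Between the genotypes at 24 h, 1 member of 38 passed, Ifi27l2a, which was higher in KO, where 0.182% of all genes were called higher. None was lower, where 0.0911% of all genes were. Ifi27l2a stood at 161, 138 and 152 CPM in WT 0 h, at 179, 135 and 156 CPM in KO 0 h, at 93.7, 81.5 and 99.5 CPM in WT 24 h and at 127, 150.1 and 161 CPM in KO 24 h. The genotypes overlapped at 0 h, and at 24 h every KO library lay above every WT library, while the KO 24 h libraries stayed within or near the range of the 0 h libraries. At 24 h it was 1.60-fold higher in KO (log2 fold change 0.67, SE 0.106, edgeR adjusted p = 0.00012), and at 0 h the difference was 0.06 (adjusted p = 0.934). The difference at 24 h passed in every alternative run, with adjusted p from 1.99e-08 to 0.0124, and in the 6 refits without 1 library each it ran from 0.59 to 0.77. Over time Ifi27l2a fell by 0.72 on the log2 scale in WT (SE 0.105, edgeR adjusted p = 1.99e-07) and changed by -0.11 in KO (adjusted p = 0.438). The test of the difference between those changes gave 0.61 (SE 0.147) and did not pass (edgeR adjusted p = 0.305), except with no filter on low counts (adjusted p = 0.0427).

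**Figure D3:**
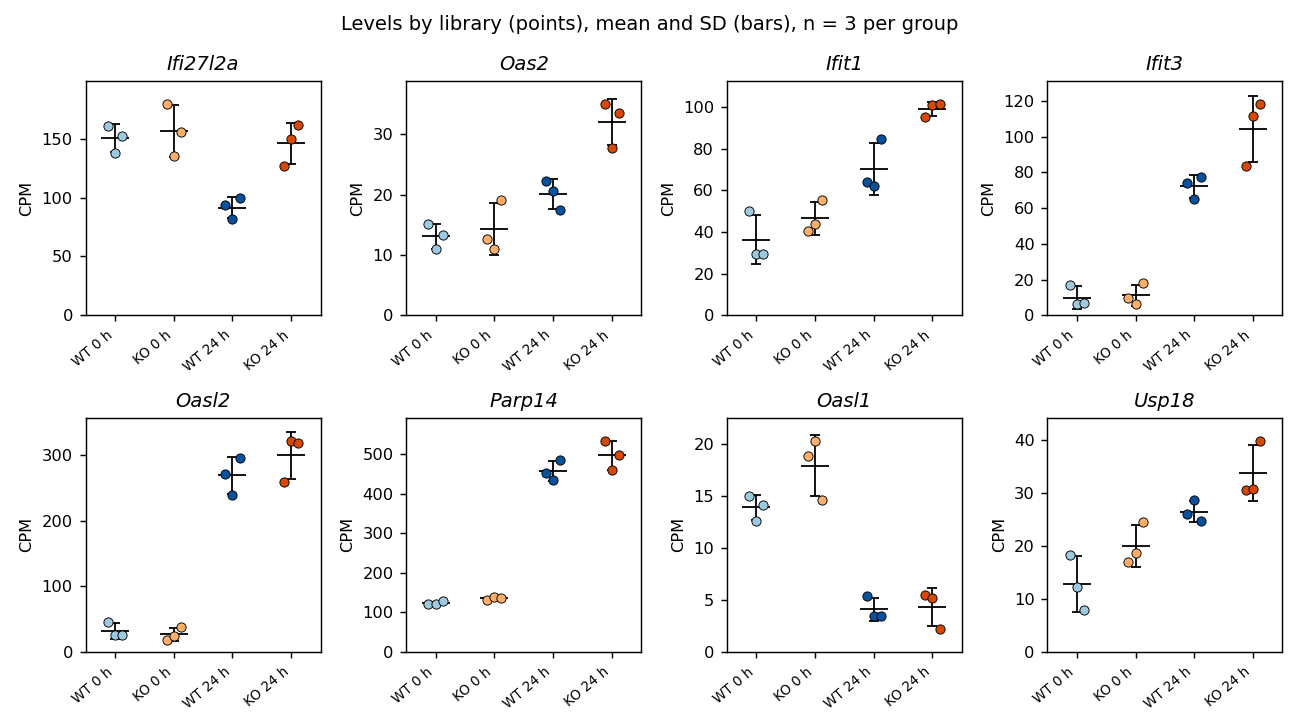
CPM of 8 members in each library (points), with the mean and SD of the 3 libraries of a group (bars). Ifi27l2a is lower in WT 24 h (81.5 to 99.5 CPM) than in the other groups, Oasl2, Ifit3 and Parp14 separate by time, and Oas2, Ifit1 and Ifit3 are highest in the KO 24 h libraries.

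Most other members were slightly higher in KO at 24 h without passing. The log2 fold change was above 0 for 36 of 38 members, beside 47.7% of all genes, and the median was 0.19, beside -0.01 for all genes. The quartiles of the members were 0.12 and 0.31. The libraries of the genotypes did not overlap for 13 members, all higher in KO, where 5.74% of all genes were higher without overlap and 7.19% lower. At an unadjusted p below 0.05, 10 members were higher and none lower, beside 3.24% and 3.82% of all genes. These were chosen for display after their values were seen: Oas2 stood at 22.3, 20.5 and 17.4 CPM in WT 24 h and at 34.9, 27.8 and 33.6 CPM in KO 24 h. Ifit1 stood at 63.8, 62.3 and 84.5 CPM in WT 24 h and at 95.3, 101 and 101 CPM in KO 24 h. Ddx58 stood at 109, 108 and 125 CPM in WT 24 h and at 135, 142 and 155 CPM in KO 24 h. In all 3 genes the KO libraries lay above the WT libraries. Their log2 fold changes were 0.68 for Oas2 (SE 0.190, edgeR adjusted p = 0.172), 0.50 for Ifit1 (SE 0.158, adjusted p = 0.352) and 0.33 for Ddx58 (SE 0.0937, adjusted p = 0.172). Oas1a (-0.37) and Parp12 (-0.10) were the members below 0. In a fit of the 24 h libraries alone, 4 members passed as higher in KO, namely Ifi27l2a, Ifit3 (0.55, edgeR adjusted p = 0.0136), Ifit1 (adjusted p = 0.0163) and Oas2 (adjusted p = 0.0362), while Ddx58 passed with library totals alone (adjusted p = 0.0311). Of all genes, 38 of 10238 passed in either direction in that fit, and 48 of 10981 with library totals alone. The members share libraries and were measured together, so their common direction is not 38 independent observations. Depth was 3.63 to 5.33 megareads in KO 24 h and 4.68 to 8.02 megareads in WT 24 h, and the ribosomal precursor Rn45s took 7.95% to 8.16% and 8.72% to 9.55% of gene reads; the part of depth was not tested, and the count of members above 0 was 36 with Rn45s left out.

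At 0 h no member passed between the genotypes with edgeR or with DESeq2, where edgeR called 0.118% of all genes higher and 0.228% lower. At an unadjusted p below 0.05, 6 members were higher in KO and none lower, beside 3.67% and 4.33% of all genes. The log2 fold change was above 0 for 32 of 38 members, beside 50.9% of all genes, with a median of 0.13 beside 0.00. The count was 24 and the median 0.04 without WT 0 h replicate 2, and 37 and 0.23 without WT 0 h replicate 1. The libraries did not overlap for 6 members, Ifih1, Ifit2, Cmpk2, Parp14, Ifi203 and Xaf1, all higher in KO, and for none lower, beside 6.04% and 6.36% of all genes. The largest differences by their p were those of Usp18 and Xaf1. Usp18 stood at 18.3, 12.2 and 8.0 CPM in WT 0 h and at 16.9, 18.7 and 24.5 CPM in KO 0 h, and the groups overlapped (log2 fold change 0.65, SE 0.207, edgeR adjusted p = 0.245). Xaf1 stood at 24.6, 19.8 and 24.5 CPM in WT 0 h and at 32.9, 30.8 and 28.8 CPM in KO 0 h, without overlap (0.43, SE 0.137, edgeR adjusted p = 0.245). Without WT 0 h replicate 1, 2 members passed, Usp18 (0.98, edgeR adjusted p = 0.0377) and Ifit1 (0.65, adjusted p = 0.0404), beside 25 of 10981 genes in either direction. The summed markers of NK cells, CD8 T cells, plasmacytoid dendritic cells and macrophages given above were also higher in every KO 0 h library. Cd22 was lower, and Ncr1 of NK cells had a mean of 0.249 CPM in WT and 1.47 CPM in the KO libraries. The CD8 sum was mostly Cd8b1. Cd8a and each tested marker of plasmacytoid dendritic cells and of macrophages overlapped between the genotypes. The part of these markers in the differences of the members was not tested.

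**Figure D4:**
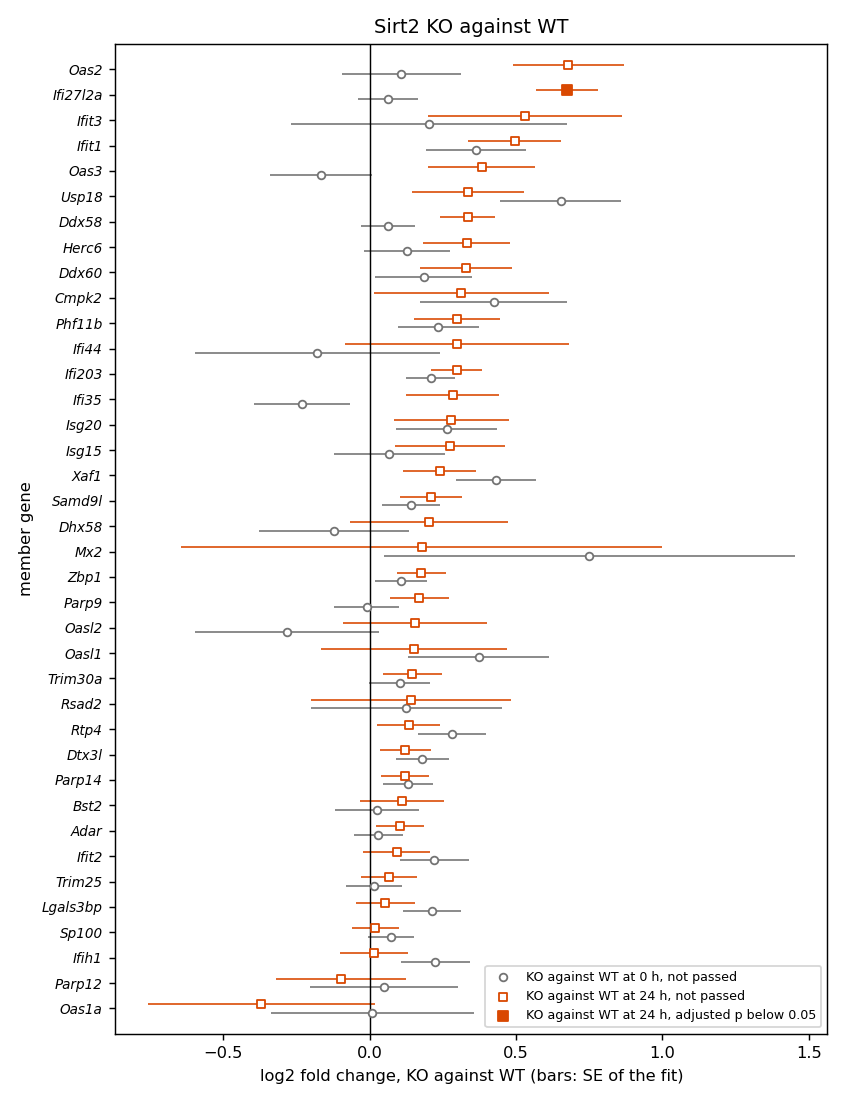
Log2 fold change of each tested member in KO against WT at 0 h (grey circles) and at 24 h (orange squares), with bars of 1 SE, sorted by the value at 24 h. The filled square is Ifi27l2a (0.67), the 1 member that passed; 36 of 38 members lie above 0 at 24 h and 32 of 38 at 0 h.

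No member passed the test of whether the change over time differed between the genotypes, with edgeR or with DESeq2, where 0.00911% of all genes passed with edgeR. At an unadjusted p below 0.05 there were 5 members, all with a more positive change in KO, beside 2.71% of all genes, and none in the other direction, beside 2.52%. They were Ddx58 (0.27), Oas2 (0.57), Oas3 (0.55), Ifi27l2a (0.61) and Ifi35 (0.51), with edgeR adjusted p from 0.305 to 0.942. The members that passed over time in 1 genotype alone are therefore not shown to respond differently in the other. The median of the members was 0.07, beside -0.01 for all genes, and it was -0.02 without WT 0 h replicate 1 and 0.14 without WT 0 h replicate 2.

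Libraries of a group differed across many members at once. WT 0 h replicate 1 had the highest level of its group for 29 of 38 members, and WT 0 h replicate 2 the lowest for 28. Of the WT 24 h libraries, replicate 3 was highest for 25. The summed level of the 40 members was 2715 to 3195 CPM in WT 0 h, 3106 to 3298 CPM in KO 0 h, 4146 to 4499.8 CPM in WT 24 h and 4752 to 4979 CPM in KO 24 h. The sums overlapped between the genotypes at 0 h and did not overlap at 24 h.

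The rest of the interferon pathway was read from 39 genes in lists by role, of which 32 were tested. Between the genotypes none of the 32 passed at either time with edgeR. At an unadjusted p below 0.05, 7 were higher and 1 lower in KO at 24 h, beside 3.24% and 3.82% of all genes. At 0 h, 0 were higher and 2 lower, beside 3.67% and 4.33% of all genes. Over time 14 rose and 7 fell in WT, beside 20.2% and 20.5% of all genes. In KO 13 rose and 6 fell, beside 19.4% and 21.0%. Of the interferon genes, Ifna2, Ifna4, Ifnb1, Ifnl2 and Ifnl3 had no read in any of the 12 libraries. For uniquely placed reads, this allows a level of up to 0.321 to 0.746 CPM per library, the worth of 3 counts. Reads that match several places were counted for no gene and are not covered by that level. Ifng, the interferon that T cells make, stood at 14.0, 16.2 and 25.6 CPM in WT 0 h, at 14.9, 14.0 and 19.6 CPM in KO 0 h, at 12.8, 21.0 and 60.6 CPM in WT 24 h and at 30.5, 43.1 and 35.3 CPM in KO 24 h. The WT 24 h libraries spread over the whole range of Ifng, and its change passed in neither genotype (0.76, edgeR adjusted p = 0.288, and 1.18, adjusted p = 0.117). Of 5 tested receptor genes, Ifngr1 rose by 1.94 and 1.88 on the log2 scale, 3 fell, Ifnar2 among them, and Ifnar1 passed in neither.

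Of 5 transcription factors, 4 rose in both genotypes and Irf3 fell. Stat2 had a mean of 35.2 ± 4.58 CPM in WT 0 h (SD, n = 3), 28.5 ± 1.60 CPM in KO 0 h, 148 ± 16.9 CPM in WT 24 h and reached 174 ± 16.6 CPM in KO 24 h. It rose by 2.07 in WT (edgeR adjusted p = 3.34e-20) and by 2.61 in KO (adjusted p = 2.47e-23). Irf1, a factor that interferon gamma induces, rose by 1.61 and 2.01. Of the negative regulators, Socs1, an inhibitor of JAK kinases, rose most, by 2.81 in WT (edgeR adjusted p = 7.19e-19) and 2.99 in KO (adjusted p = 1.54e-19). Samhd1, a deoxynucleotide hydrolase that starves viruses of nucleotides, rose by 2.02 and 2.21. The 3 listed enzymes of the response beside the members rose in both genotypes: the RNA-dependent kinase Eif2ak2, and Uba7 and Ube2l6, which load ISG15. Of 9 tested sensing genes, Tbk1 rose in both genotypes and Tlr9, a sensor of DNA, fell in WT from a mean of 3.80 ± 1.69 CPM to 0.257 ± 0.133 CPM (SD, n = 3; edgeR adjusted p = 3.78e-05), with 5 reads left in WT 24 h. In KO, Tlr9 went from 2.38 ± 1.12 CPM to 1.66 ± 1.44 CPM and did not pass. Its KO 24 h libraries stood at 0.914, 3.32 and 0.746 CPM. The difference between the 2 changes did not pass (edgeR adjusted p = 0.520), nor did KO against WT at 24 h (adjusted p = 0.248).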

How the data were processed

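Per the labels' protocols, CD4+ T cells were enriched from spleen by removing other cells, to a purity above 95%, and total RNA, 100 ng per library, was prepared with a NuGen kit that depletes ribosomal RNA by probes. The authors deposited raw counts of reads for each gene symbol, 1 table per library. The submitters' processing notes name STAR 2.6.0c, DESeq and the build hg19, a human build, while the symbols are those of mouse, so no coordinates were taken from the counts; the counting tool, its annotation and its use of strand were not given in the sources used here. The 5 entries that name no gene entered neither library sizes nor tests: no feature 22.8% to 35.4% of reads, ambiguous 0.412% to 0.576%, aligned to several places 25.7% to 30.9%, the others the rest. Reads that match several places were counted for no gene, so members with close copies (the Ifit, Oas1, p200, Phf11 and Trim30 families) are uncertain. So are members whose exons overlap another gene in GENCODE M21, namely Parp9 with Dtx3l, and Adar, Dhx58, Oasl1, Usp18, Herc6, Rtp4, Parp14, Ifi203, Sp100 and Ifi35 with other genes.

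Genes were kept by edgeR's filterByExpr (minimum count 10, minimum total 15), which left 10981. The counts were scaled by TMM and tested in 1 fit of the 4 groups with edgeR 4.0.16 (robust quasi-likelihood, R 4.3.3), with Benjamini-Hochberg adjustment over the 10981 genes, and the threshold was an adjusted p of 0.05. There were 5 comparisons: genotype at each time, time in each genotype, and their interaction. Library depth, 3.63 to 10.0 megareads in genes, leaves members of a few CPM with wide errors, and the level that 3 counts allow covers counting error only. Levels per kilobase used union exon lengths of GENCODE M21. Promoter windows and their coordinates came from RefSeq GRCm38.p6. The members, the pathway lists and the tests were chosen with earlier results of these data known. Values in every library are given for members that passed with the 4 largest changes in a comparison and for those that passed between genotypes; the highest member of each role group is named, and of the pathway up to 4 genes with the largest change over time. Some pathway genes are not reported here. Other genes named, and the count of members above 0, were chosen after their values were seen. Alternatives were DESeq2 1.42.0, RLE, upper-quartile and library-total scaling, no filter and a minimum count of 50, a fit of the groups compared alone, Rn45s left out, a replicate block and each library left out. Replicates of a group gave 3.12 to 15.1 as chi-square per gene, beyond sampling noise, so none was counted as a repeat of another. Same-numbered libraries of different groups deviated together little (r from -0.09 to 0.09 over 18 pairs). Between 0 h and 24 h within a genotype, same numbers gave 0.01, 0.08 and 0.09 in WT and 0.05, -0.002 and 0.03 in KO. Different numbers gave -0.09 to 0.02 in WT and -0.06 to 0.02 in KO. Whether the numbers pair the 0 h and 24 h libraries was not settled, and the main fit did not pair them.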

Additional observations from a re-analysis of the deposited data

How the results depend on the processing

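No called value changed direction in any alternative run. The count of members higher in KO at 24 h was 1, and it was 2 with library totals alone, 2 without the low-count filter and 4 with only the groups compared. Of all genes, 30 of 10981 passed in either direction in the main fit. In those runs it was 48 of 10981, 43 of 15503 and 38 of 10238. With library totals alone 5 members were lower over time in KO, in place of 8. The median changes over time were then 0.47 in WT and 0.70 in KO, in place of 0.26 and 0.45. That scaling moved the median of all genes to 0.21 and 0.24. It called 5048 genes over time in WT and 5111 in KO in either direction, in place of 4470 and 4435. For the interaction 1 member passed without the low-count filter, beside 3 of 15503 genes. Leaving out each library in turn gave 0 to 2 members higher in KO at 0 h, 1 at 24 h throughout, 16 to 20 higher and 8 to 10 lower over time in WT, 19 to 21 and 6 to 8 in KO, and medians of 0.20 to 0.42 over time in WT and 0.41 to 0.48 in KO. The genotype medians without 1 library ran from 0.04 to 0.23 at 0 h and from 0.15 to 0.23 at 24 h, and the members above 0 at 24 h from 32 to 36. The interaction median ran from -0.02 to 0.14. Of 56 calls of single members, 10 were lost in at least 1 alternative, and members higher over time in WT reached 22, in place of 17, with library totals alone. The fit with a replicate block gave 0 members at 0 h, 1 higher at 24 h, and 17 higher and 9 lower over time in WT and 21 and 8 in KO, the counts without it. The causes were not tested. Depth limits Mx1, Mx2 and Ifi204 most, each with a library without a read, and the stricter filter tested 35 members.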
